A study of Mus musculus with 38 samples.

Results

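The MAP kinase phosphatase (Dusp), Sprouty (Spry) and Spred genes are described here by the accessibility of the open-chromatin peaks nearest to them in mouse CD8+ T cells. A peak was counted as a member when the nearest autosomal protein-coding gene body of mm10, at most 100 kb away, had a symbol of Dusp, Spry or Spred followed by a digit. The rule named 28 of 20665 autosomal protein-coding genes. It gave 188 of 73610 peaks in the table of endogenous cells, spread over 27 genes because Dusp18 had no peak there, and 310 of 169323 peaks, over all 28 genes, in the table of OT-1 and naive cells. No measured value entered the rule, and distance to a gene does not show that a peak acts on it.

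The study assayed CD8+ T cells by ATAC-seq, in which a transposase cuts open chromatin, to compare young and aged mice bearing B16-OVA tumours, a melanoma line that carries the ovalbumin antigen. All donors were C57BL/6J mice with the genotype entry wild type, aged 10 to 12 weeks (young) or 64 to 68 weeks (aged). Tumour cells were taken on day 15 and sorted as progenitor exhausted (Tprog, Slamf6+ Tim-3-), terminally exhausted (Tterm, Slamf6- Tim-3+) or, in aged mice only, age-associated dysfunctional cells (Tadys, Slamf6- Tim-3-), in pools of 5000 to 50000 cells. The 17 endogenous libraries comprised 4 young Tprog, 3 aged Tprog, 5 young Tterm, 3 aged Tterm and 2 aged Tadys libraries. They all carry the same entry, batches 1 and 2, so the batch of a single library is not known. The 21 others comprised OT-1 cells, whose transgenic receptor recognises ovalbumin, from tumours (2 young Tprog, 2 aged Tprog, 7 young Tterm, 6 aged Tterm) and naive cells from the spleen (2 young, 2 aged). Young and aged OT-1 libraries are labelled as such, but the age of the mice that held the cells is not given, and their genotype entry is the same as that of the rest.

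MAP kinases carry signals from the T cell receptor through a chain of kinases to transcription factors. Dusp proteins remove the phosphates that switch MAP kinases on: Dusp1, Dusp2, Dusp4 and Dusp5 act in the nucleus and are induced by the signal they shut off, Dusp6 and Dusp7 act on ERK in the cytoplasm, and Dusp8, Dusp10 and Dusp16 prefer JNK and p38. Sprouty and Spred proteins act further up, on the steps that lead from receptors through Ras to Raf. The other Dusp genes encode smaller, atypical phosphatases, some of which act on substrates outside the MAP kinase pathway.

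Promoters are shown for 5 genes on which the results turn, as the 250 bases before a start of each gene, 5′ to 3′, from RefSeq (GRCm38.p6). For Dusp3 the start used lies inside the gene body (chr11:101971141-101987013). Its window and its promoter peak therefore lie inside the gene. Capitals mark matches to the searched motifs. Dusp2 had the peak of highest mean, Dusp1 held a cyclic AMP response element, Dusp5 had the most called peaks, and promoter peaks differed with age at Dusp3 in naive cells and at Spry2 in OT-1 Tterm, with no such call in endogenous cells.
Dusp2 (chr2:127335909-127336158, plus strand): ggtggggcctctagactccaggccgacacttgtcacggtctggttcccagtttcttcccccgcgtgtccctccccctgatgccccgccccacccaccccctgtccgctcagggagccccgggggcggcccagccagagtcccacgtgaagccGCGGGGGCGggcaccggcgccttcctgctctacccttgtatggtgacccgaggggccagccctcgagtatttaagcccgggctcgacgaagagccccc
Dusp1 (chr17:26508473-26508722, minus strand): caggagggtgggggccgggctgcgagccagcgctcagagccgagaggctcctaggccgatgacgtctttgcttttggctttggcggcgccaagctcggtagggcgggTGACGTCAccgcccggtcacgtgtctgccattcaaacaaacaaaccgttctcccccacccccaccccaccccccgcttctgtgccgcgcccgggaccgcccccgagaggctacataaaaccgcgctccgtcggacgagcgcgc
Dusp5 (chr19:53528895-53529144, plus strand): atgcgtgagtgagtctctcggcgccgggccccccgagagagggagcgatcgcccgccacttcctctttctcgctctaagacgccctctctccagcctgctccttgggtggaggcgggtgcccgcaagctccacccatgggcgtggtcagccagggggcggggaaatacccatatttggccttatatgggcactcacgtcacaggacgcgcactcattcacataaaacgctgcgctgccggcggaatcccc
Dusp3 (chr11:101984792-101985041, minus strand): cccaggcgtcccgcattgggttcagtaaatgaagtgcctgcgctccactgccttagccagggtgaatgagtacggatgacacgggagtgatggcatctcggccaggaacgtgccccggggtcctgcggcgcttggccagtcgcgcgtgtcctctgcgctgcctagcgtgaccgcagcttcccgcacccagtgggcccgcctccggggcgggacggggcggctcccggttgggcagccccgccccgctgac
Spry2 (chr14:105896820-105897069, minus strand): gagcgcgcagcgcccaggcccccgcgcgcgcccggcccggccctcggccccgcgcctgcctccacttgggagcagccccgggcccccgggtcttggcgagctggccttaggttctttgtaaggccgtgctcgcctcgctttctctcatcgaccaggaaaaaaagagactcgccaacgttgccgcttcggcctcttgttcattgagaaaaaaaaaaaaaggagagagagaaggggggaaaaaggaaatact
The motifs below were searched on both strands in the same windows of all 32851 promoters: AP-1 (TGANTCA), CRE (TGACGTCA), ETS (CCGGAAG), EGR (GCGNGGGCG) and NFAT (GGAAAATT). The capitals in Dusp2 are an EGR match 98 bases before the start, and those in Dusp1 a CRE match 143 bases before it. Of the member genes, 23 had an entry, with 26 promoters. EGR letters stood in 4 of the 26 (Dusp2, Dusp16, Dusp22, Dusp23) against 4.70% of all promoters, and CRE letters in 2 (Dusp1, Dusp8) against 1.55%. AP-1 letters stood in 1 (Dusp13) against 6.75%, ETS letters in 1 (Dusp27) against 6.91%, and NFAT letters in 0 against 0.941%. The member promoters had a median GC content of 59.4% and a median of 16.5 CpG sites, against 52.4% and 6 over all promoters. A peak covered the whole window in 20 of the 23 genes in each table.

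Levels below are normalised reads, that is, reads in a peak divided by a size factor for each library, and a gene mean is the average over all peaks given to a gene. A difference was called when its adjusted p in limma was under 0.05. The libraries held 4.64 to 87.6 megareads (reads in units of 1e6) in peaks (median 22.3) for endogenous cells and 6.80 to 27.7 (median 12.6) for the others. The markers used for sorting differed between Tprog and Tterm as labelled: in endogenous cells the Slamf6 gene mean was 297 to 383 in Tprog and 116 to 182 in Tterm libraries, and that of Havcr2, which encodes Tim-3, was 299 to 355 and 520 to 612. In Tadys, sorted as negative for both, Slamf6 read 129 and 211 and Havcr2 351 and 370, but the Havcr2 peak chr11:46452527-46456391 was higher in Tadys (935) than in aged Tprog (615), the other Tim-3- subset (log2 0.61, adjusted p = 0.00809). Cd8a (469 to 707) and Cd3e (268 to 430) were open in every endogenous library. The 2 aged OT-1 Tprog libraries stood apart. Their correlation with each other was 0.731, lower than that of each with the young OT-1 Tprog group (0.788 and 0.909), and replicate 1 had a mean of 48.8 over all peaks against 74.8 for replicate 2. The 2 Tadys libraries also correlated less with each other (0.863) than with aged Tterm (0.866 and 0.895). Genes of other cell types also had peaks: the summed level of 5 of 6 melanocyte genes was 1865 to 2478 over the endogenous libraries, and that of 4 of 6 myeloid genes, without Lyz2, was 2300 to 2843 in young Tprog and 2724 to 3134 in young Tterm. In aged cells the myeloid sums did not overlap, at 2002 to 2483 in Tprog, 2518 to 2537 in Tterm and 2645 to 2739 in Tadys. The labels describe pools of 2 or 3 biological replicates and do not say whether libraries of a group came from separate pools, so p-values reflect the scatter of libraries, which may be technical. In pooled cells, fewer cells with an open site and less opening in each cell cannot be told apart.

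Many member peaks lay between genes. Of the endogenous member peaks, 32 of 188 (17.0%) were within 1000 bp of a gene end, 50 (26.6%) lay inside a gene and 106 (56.4%) between genes, against 20.8%, 47.0% and 32.2% of all peaks given to a gene. Dusp22 (20 peaks), Spred2 (21), Dusp5 (19), Dusp4 (13), Spred1 (13), Dusp10 (12), Dusp16 (10) and Spry2 (10) had the most, followed by Dusp6 and Spry1 (8 each), Dusp1 and Spry4 (7 each), Dusp8 (6), Dusp7 (5), Dusp2 and Dusp11 (4 each). The remaining 11 genes had 1 to 3. The most open single member peak covered the Dusp2 promoter (mean 4078), followed by the promoter peaks of Dusp10 (2632) and Dusp6 (2591), a peak at a gene end of Dusp4 (2386) and the promoter peak of Dusp1 (2095). Per kb of peak, the level was highest at Dusp23, an atypical phosphatase with 1 peak (981 ± 143 normalised reads per kb, SD over 17 libraries), and at Dusp28 (746 ± 128) and Dusp2 (734 ± 101), and lowest at Dusp27 (100.2 ± 32.4). In the OT-1 and naive table Dusp2 led (429 per kb) and Dusp27 was again lowest (24.2).

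**Figure D1:**
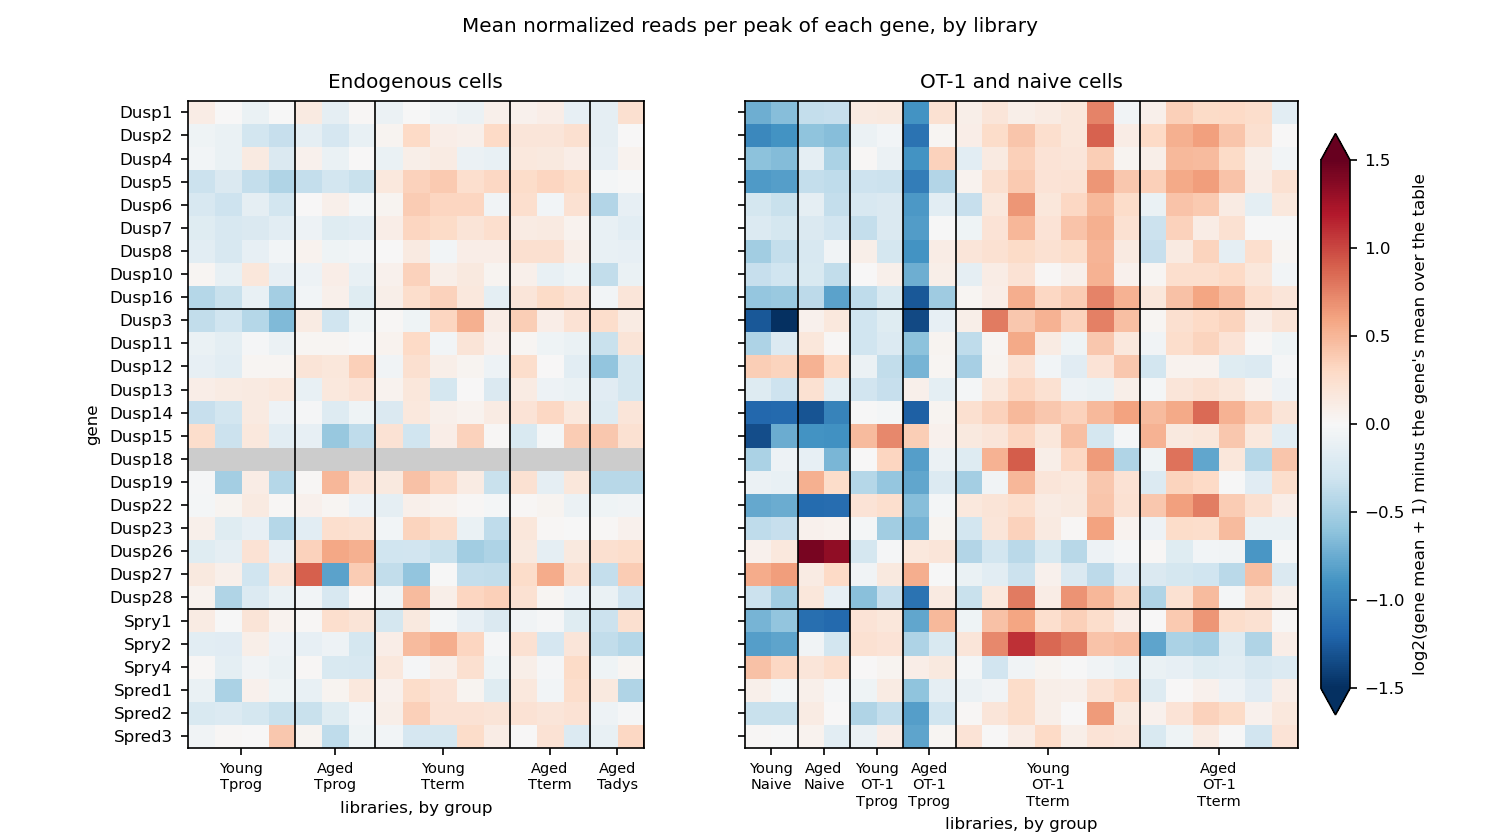
Gene means by library, as log2(mean + 1) minus the gene's average over the table (colour, which saturates at 1.5 in either direction), for 28 genes (rows) in the 17 endogenous libraries (left) and the 21 OT-1 and naive libraries (right); grey marks Dusp18, which had no endogenous peak. Tterm libraries are redder than Tprog for Dusp5 and Spred2, and naive libraries are bluer than OT-1 libraries for Dusp2, Dusp14 and Dusp22, apart from aged OT-1 Tprog replicate 1.

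The mean over all member peaks was 289 to 317 in the 7 endogenous Tprog libraries and 338 to 397 in the 8 Tterm libraries, with no overlap. Divided by the mean over all peaks of the library, it was 1.22 to 1.28 in Tprog, 1.27 to 1.39 in Tterm and 1.27 and 1.28 in Tadys. In the other table this ratio was 1.24 to 1.31 in naive, 1.55 and 1.57 in young OT-1 Tprog, 1.36 and 1.55 in aged OT-1 Tprog and 1.68 to 1.84 in OT-1 Tterm libraries. Ordered by group mean, 16 of 28 genes were highest in young OT-1 Tterm and 12 were lowest in young naive cells. In the endogenous table young Tterm was highest for 8 of 27 genes and aged Tterm for 9, and young Tprog was lowest for 12. The order over all genes is not given here. The mean over all peaks was 63.3 and 64.0 in young naive and 65.9 to 98.7 in young OT-1 Tterm libraries. In endogenous cells it was 237 to 252 in young Tprog, 248 to 261 in aged Tprog and 259 to 296 in Tterm libraries. The part of the mean over all peaks in these levels and orders was not tested.

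The first comparison asks how the chromatin of terminally exhausted cells differs from that of their progenitors. In young endogenous cells, 47 of 185 member peaks tested were higher in Tterm and 15 were lower. Over all peaks 14.3% were called higher and 11.3% lower. The members' median log2 difference was 0.14, and that of all peaks -0.01. With libraries scaled to equal totals, which moved the median of all peaks by -0.155, the split was 32 higher and 21 lower and the members' median was -0.02. In that scaling 17274 of all peaks were called in either direction (71756 were tested in the main fit), and the median of all peaks was -0.17. Among peaks within 1000 bp of a gene end, 16 of 32 member peaks were higher and 0 lower, against 22.4% and 6.28% of all such peaks. All 15 lower member peaks lay elsewhere, 12 between genes and 3 inside Dusp22. The summed level of B cell genes (3 of 5 with a peak, Cd79a and Ms4a1 not listed) was 1820 to 2306 in young Tprog and 1490 to 1753 in young Tterm, and the part of other cell types in these differences was not tested.

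Of the nuclear, inducible phosphatases, Dusp5, which is selective for ERK, moved most: 11 of its 19 peaks were higher in Tterm and 0 lower. At a peak 63805 bp before the gene (chr19:53464342-53465340, between genes) young Tprog libraries read 560, 719, 525 and 505, and young Tterm libraries 1279, 1332, 1184, 1083 and 1104. Every Tterm library was above every Tprog library, and the log2 difference was 1.06 ± 0.12 (SE, adjusted p = 2.1e-07). Its gene mean was 297.8 ± 20.8 (SD, n = 4) in Tprog and 460.4 ± 27.9 (n = 5) in Tterm (log2 difference 0.63, adjusted p = 5.01e-06). The promoter peak of Dusp5, which covers the sequence given above, rose by 0.52 (adjusted p = 0.000358).

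Dusp2, which acts on ERK and p38, rose in its gene mean from 1253.8 to 1607 (log2 0.36, adjusted p = 0.00568), but with equal library totals the value was 0.20 (adjusted p = 0.0694). Dusp1, which prefers p38 and JNK, moved the other way at sites between genes. A peak 1670 bp beyond its end (chr17:26502836-26503921) read 1049, 768, 873 and 776 in Tprog and 559, 527, 556, 586 and 518 in Tterm, without overlap (log2 -0.65 ± 0.12, adjusted p = 0.000142). The Dusp1 promoter peak was 2041.6 in Tprog and 2173.9 in Tterm (log2 0.09, adjusted p = 0.614). Of the 13 Dusp4 peaks 4 were lower in Tterm and 0 higher, the lowest p being at chr8:34821302-34822235 (104.9 against 52.2, log2 -0.98, adjusted p = 0.00372).

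Both cytoplasmic ERK phosphatases were higher in Tterm. Dusp7 rose in its gene mean from 416.5 ± 10.1 to 562.8 ± 33.5 (log2 0.43, adjusted p = 0.00015). Dusp6, a feedback inhibitor of ERK, rose from 494.3 to 676.3 (0.44, adjusted p = 0.00263), with 3 of 8 peaks called. Its peak of lowest p (chr10:99268485-99269651), near the end of the gene, read 382 to 440 in Tprog and 589 to 897 in Tterm.

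Among the JNK and p38 phosphatases, Dusp16 rose in its gene mean from 184.8 to 259.7 (log2 0.49, adjusted p = 0.00208), and 5 of its 9 tested peaks were higher. Dusp10 was split: its promoter peak was higher in Tterm (3056.9 against 2332.1, log2 0.39, adjusted p = 0.00406) and 2 peaks beyond the gene were lower, that of lowest p at chr1:184100509-184102289 (140.7 against 275.4, log2 -0.97, adjusted p = 0.000405). For Dusp8, 1 peak within 1000 bp of a gene end rose by 0.50 (adjusted p = 0.00155).

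The member peak of lowest p lay inside Dusp14, an atypical phosphatase reported to restrain T cell receptor signalling (chr11:84055540-84056319). It read 21.3, 60.7, 37.2 and 46.2 in young Tprog and 174, 225, 258, 210 and 213 in young Tterm. The Tterm libraries were all above the Tprog libraries, with a log2 difference of 2.44 ± 0.25 (adjusted p = 2.56e-08). The gene mean of Dusp3, a phosphatase of ERK and JNK, rose from 128.8 to 200.3 (log2 0.62, adjusted p = 0.00109). Dusp28, with a single peak, rose from 747.5 to 999.5 (0.42, adjusted p = 0.0101, and 0.0822 with equal totals), and Dusp26 was the only gene mean called lower (103.3 against 81.9, log2 -0.33, adjusted p = 0.0393), a call lost under 9 of the alternatives.

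Of the feedback inhibitors upstream, Spred2 had 8 of 21 peaks higher and 0 lower, and its gene mean rose from 212.0 to 295.0 (log2 0.47, adjusted p = 0.000275). Inside Spred2, the peak chr11:19988884-19989860 read 267, 226, 260 and 217 in Tprog and 431, 582, 545, 440 and 509 in Tterm (log2 1.04 ± 0.14, adjusted p = 2.69e-06). Spred1 had 1 peak higher and 2 lower. Spry2 had 3 peaks higher, and its gene mean rose from 290.9 to 378.7 (0.37, adjusted p = 0.023), which was not called with equal totals (adjusted p = 0.184), in edgeR (0.0575) or without any of 5 single libraries (young Tterm 2 or 3, young Tprog 1, 2 or 4). Spry1 had 1 peak lower (chr3:37674630-37675955, 127.4 against 67.7, log2 -0.94, adjusted p = 0.00301), and Spry4 had 2 peaks higher and 1 lower. In all, 9 of 27 gene means were called higher and 1 lower, against 24.3% and 9.27% of all genes.

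**Figure D2:**
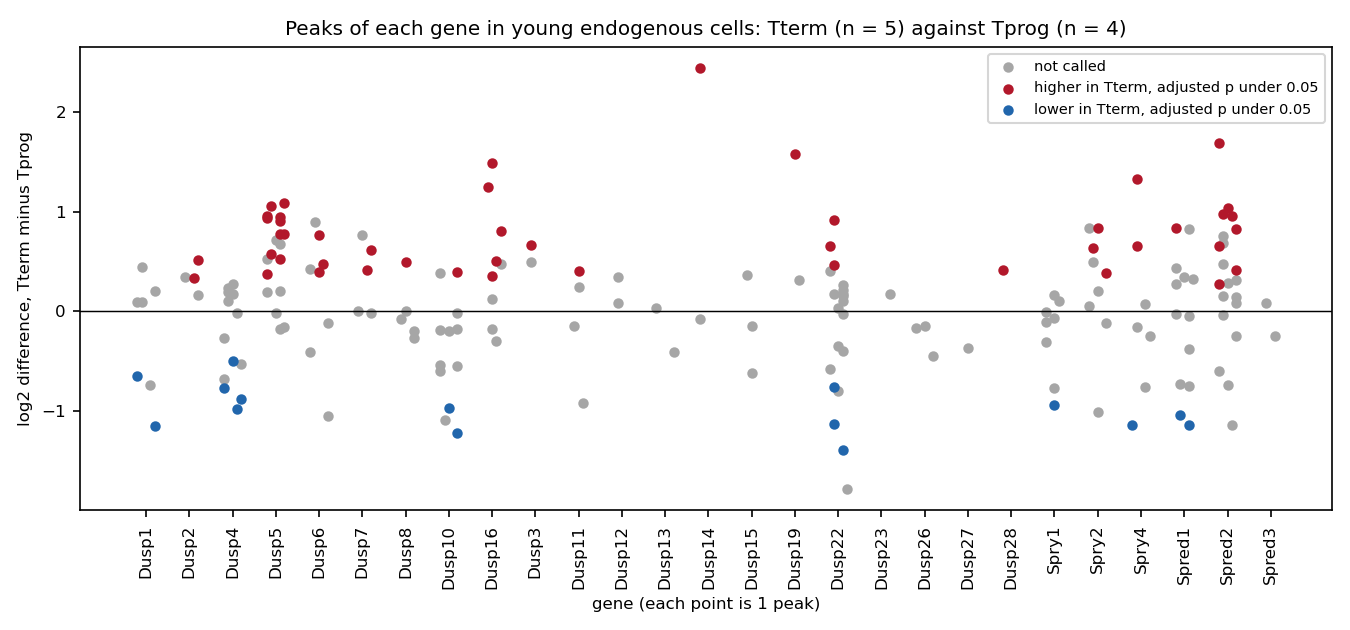
Log2 difference between young endogenous Tterm (n = 5) and Tprog (n = 4) libraries for each of the 185 tested member peaks (points), grouped by gene; coloured points have an adjusted p under 0.05. Dusp5 and Spred2 have 11 and 8 higher peaks and 0 lower, and the highest point is the Dusp14 peak at 2.44.

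In aged endogenous cells, with 3 libraries in each group, 21 of 185 member peaks were higher in Tterm and 6 lower. Over all peaks 6.75% were higher and 5.37% lower. Of the 47 peaks higher in young cells, 18 (38.3%) were also called higher in aged cells, and these were 85.7% of the 21. Of the 15 lower in young cells 4 were called lower in aged cells, and the sign was the same for 45 of the 47 and for 13 of the 15. The same shares over all peaks are not given here, so these counts cannot be set against them. The summed level of myeloid genes was also higher in aged Tterm than in aged Tprog (values above). At the peak of lowest p of each such gene, Itgam rose from 251.6 to 530.5 (log2 1.09, adjusted p = 0.000203). Spi1 (252.6 to 352.5, adjusted p = 0.0975), Csf1r (5.72 to 6.31, 0.777) and Cd14, which was lower (332.1 to 310.6, 0.861), were not called. The part of myeloid cells in these differences was not tested. Dusp5 had 9 peaks higher and Spred2 7. The Dusp14 peak read 46.1, 44.4 and 45.7 in Tprog and 207, 352 and 303 in Tterm (log2 2.60 ± 0.30, adjusted p = 1.2e-06). The Dusp5 peak at chr19:53478948-53480616 read 254, 388 and 361 against 741, 821 and 775 (1.24 ± 0.16, adjusted p = 4.42e-06). The Dusp1 peak beyond the gene, described above, read 1049, 1015 and 1002 against 682, 635 and 565 (-0.71, adjusted p = 0.00114). In none of these peaks did the groups overlap.

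Gene means were called higher for 3 of 27 genes and lower for 0 (5.56% and 3.55% of all genes). That of Dusp5 rose in aged cells from 299.5 to 460.2 (log2 0.62, adjusted p = 0.000166). That of Spred2 rose from 223.4 to 293.7 (0.40, adjusted p = 0.0145), but the call was lost without aged Tprog replicate 1 (0.0723), without aged Tterm replicate 3 (0.0556) and with the compared groups fitted alone (0.0528). Dusp2 rose from 1274.9 to 1641.9 (0.37, adjusted p = 0.0419), a call lost under 9 alternatives, among them each left-out library. Without aged Tterm replicate 3 only 17 member peaks were called.

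**Figure D3:**
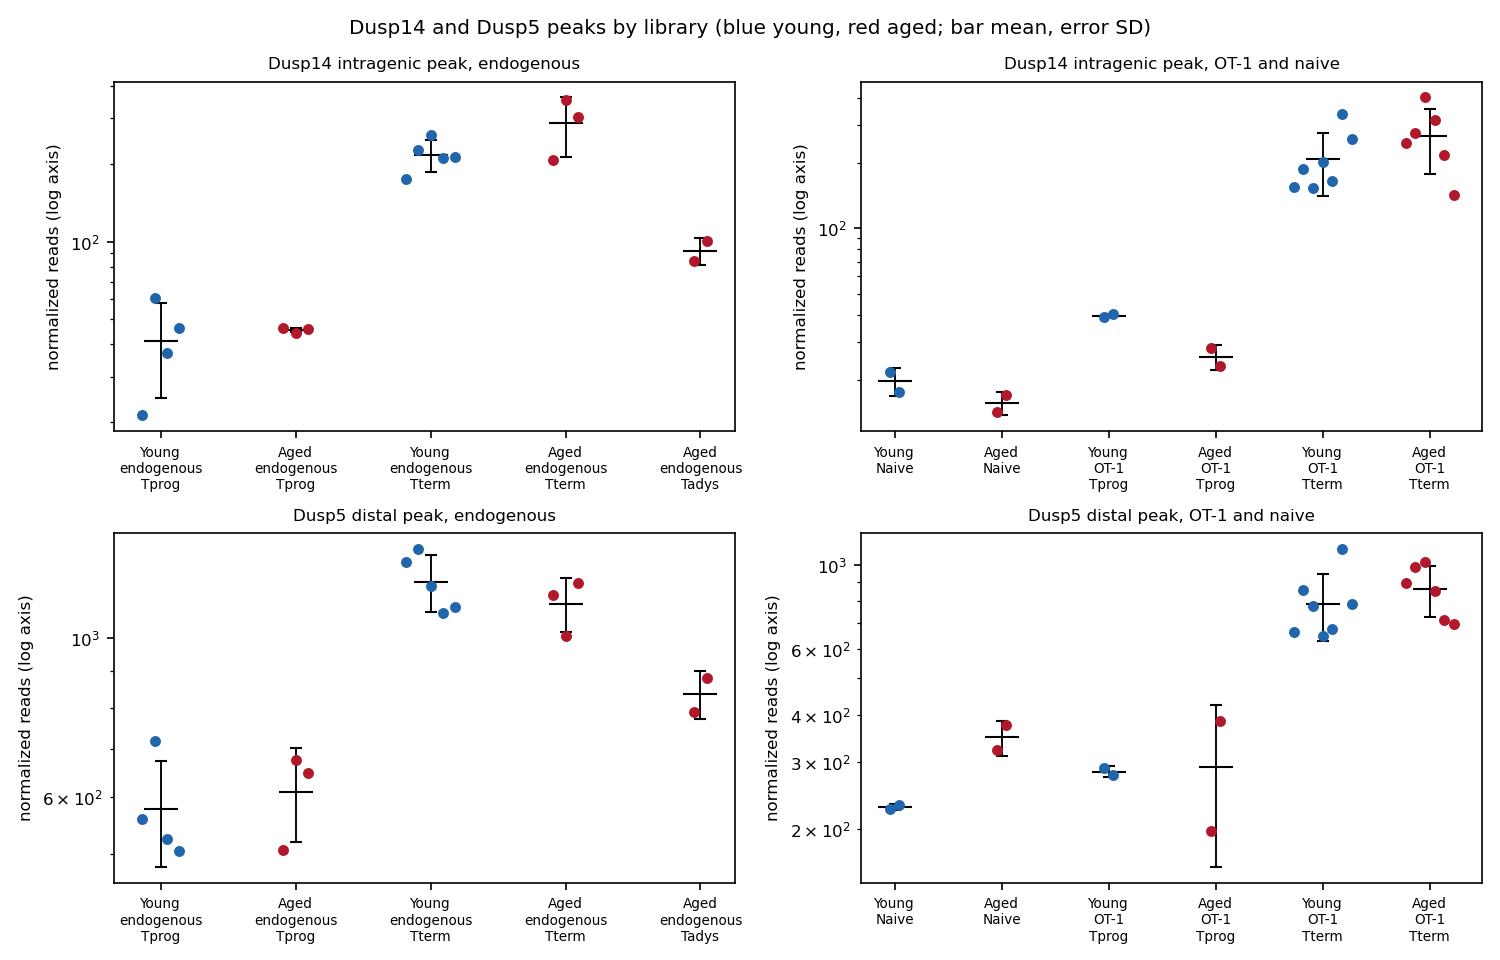
Normalised reads by library (points, log axis) and group mean (bar) at the Dusp14 peak and at the Dusp5 peak 63805 bp before the gene, in the endogenous and the OT-1 and naive tables. Tterm libraries are above Tprog libraries at both peaks in both tables, and Tadys libraries lie between the aged Tprog and Tterm libraries.

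Between ages, no member peak was called in endogenous cells. Aged and young Tterm differed at 0 of 185 member peaks (10 with an unadjusted p under 0.05, 0 in edgeR), and 0.00836% of all peaks were called. In Tprog the count was also 0 (18 unadjusted, 0 in edgeR), with 0.166% of all peaks called. For the change from Tprog to Tterm, a difference between ages was called at 0 member peaks (0 in limma and in edgeR, 9 unadjusted), and 0 of 71756 peaks were called (0%). The lowest p in Tterm was at the Dusp4 peak chr8:34821302-34822235, which read 48.8, 47.6, 63.9, 51.6 and 48.9 in young and 76.6, 113 and 120 in aged libraries (log2 0.95 ± 0.27, adjusted p = 0.313). In Tprog it was at a peak inside Dusp16 (1.19, adjusted p = 0.118). No gene mean was called (0% of all genes in Tterm and for the difference between subsets, 0.126% in Tprog; 2, 1 and 6 members with an unadjusted p under 0.05), the lowest p being that of Dusp26 in both subsets: 81.9 ± 6.0 in young and 111.6 ± 12.2 in aged Tterm (0.44, adjusted p = 0.39), and 103.3 ± 14.3 and 150.4 ± 13.0 in Tprog (0.54, adjusted p = 0.12).

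Tadys cells were sorted from aged tumours only, so they could be set against aged Tterm and aged Tprog alone. Against Tterm, 2 member peaks were higher and 10 lower (2.06% and 4.23% of all peaks), with a median log2 difference of -0.17 over members and -0.03 over all peaks. Against Tprog, 5 were higher and 7 lower (2.61% and 4.04% of all peaks), and 8 and 7 with equal totals. In that scaling 4989 of all peaks were called in either direction (71756 were tested in the main fit). With the compared groups fitted alone, 2 member peaks were called against Tterm and 2 against Tprog. The share of all peaks called in those fits is not given here. A peak inside Dusp10 (chr1:184047120-184049597) read 391 and 571 in Tadys, 940, 921 and 950 in Tterm and 884, 897 and 922 in Tprog. The myeloid sums were highest in Tadys among the aged groups, and their part was not tested. At the Dusp10 peak Tadys was below both, by -0.99 (adjusted p = 0.00195) and -0.93 (adjusted p = 0.00341).

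At the Dusp14 peak the Tadys libraries read 84.2 and 100, below all Tterm libraries (log2 -1.60, adjusted p = 0.00584). They lay above all Tprog libraries there. Spred2 and Dusp5 held the peaks that were higher in Tadys than in Tprog with lowest p: the Spred2 peak chr11:19961024-19961864 read 234 and 194 against 46.1, 85.5 and 59.0 (1.78, adjusted p = 0.00545). The Spry1 peak that fell from Tprog to Tterm read 174 and 213 in Tadys and 78.4, 82.1 and 83.7 in Tterm (1.23, adjusted p = 0.0188). Of 27 gene means, 1 was lower than in Tterm (2% of all genes higher, 5.99% lower) and 1 lower than in Tprog (2.02% and 4.22%), Dusp12 in both. The gene mean of Dusp12, an atypical phosphatase, was 190.5 ± 31.4 in Tadys, 263.7 in Tterm (-0.47, adjusted p = 0.0459) and 302.0 in Tprog (-0.67, adjusted p = 0.0129). These calls rest on 2 libraries that correlate poorly: without Tadys replicate 1, 4 and 2 member peaks were called, and the adjusted p was 0.0564 and 0.0894 at Dusp10, 0.0507 at Dusp14 and 0.0558 at Spred2. The Dusp12 gene mean was then not called against either group (0.328 and 0.134), nor against Tterm without aged Tterm replicate 1 (0.183) or 2 (0.0666). Without aged Tterm replicate 1 or 3 the count against Tterm was 6 or 7, and without aged Tprog replicate 2 that against Tprog was 6.

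OT-1 cells allowed the same subset comparison in cells of a single receptor. In young OT-1 cells 17 of 215 member peaks were higher in Tterm and 4 lower, against 4.06% and 3.57% of all peaks, and edgeR gave 18 and 8. Over all peaks edgeR called 7653 of 84091 in either direction. The median log2 difference was 0.18 over members and -0.01 over all peaks. Dusp5 (7 peaks) and Spred2 (5) again held most. The Dusp14 peak (chr11:84055620-84056439) read 39.0 and 40.1 in Tprog and 153 to 335 in Tterm, with a median of 188 (2.28 ± 0.32, adjusted p = 3.99e-05). The Dusp5 peak at chr19:53464370-53465372 read 290 and 277 against 648 to 1100, with a median of 778 (1.42, adjusted p = 0.000411), and the Spred2 peak at chr11:19988794-19989887 read 99.3 and 88.4 against 190 to 354 (1.54, adjusted p = 0.00101). Every Tterm library was above both Tprog libraries in all 3.

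In the other direction, a peak inside Dusp22 (chr13:30685837-30686512) read 82.5 and 87.2 in Tprog and 13.5 to 42.1 in Tterm (log2 -2.00, adjusted p = 0.00117). Dusp22 encodes a phosphatase known to dampen T cell receptor signalling. The Spred2 gene mean was the only one of 28 called (3% of all genes higher and 3.18% lower; 65.4 against 100.4, 0.55, adjusted p = 0.0467), and this call was lost without Tprog replicate 1 or 2 or Tterm replicate 2, 3, 4 or 5 (adjusted p of 0.053 to 0.307), while 7 gene means were called without Tterm replicate 1. The count of peaks fell to 9 and 7 without young Tprog replicate 1 or 2.

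Peaks of the tables that overlapped by at least 1 bp were set side by side, 173 pairs at member genes. All 46 member peaks that were higher in young endogenous Tterm had the same sign in young OT-1 cells and 15 (32.6%) were also called, against 96.0% and 24.8% of 10126 such peaks over the genome. All 15 lower peaks had the same sign and 2 (13.3%) were called, against 95.9% and 33.2% of 7436. Read the other way, 93.8% of the 16 pairs called higher in OT-1 cells were called higher in endogenous cells (79.7% over the genome). Of the 4 pairs called lower in OT-1 cells, 50.0% were called lower in endogenous cells (87.0% over the genome). The endogenous and OT-1 cells share no library.

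In aged OT-1 cells 35 member peaks were higher in Tterm and 2 lower (11.3% and 3.39% of all peaks). With equal totals, which moved the median of all peaks by -0.40, 27 were higher and 11 lower. In that scaling 11792 of all peaks were called in either direction (84091 tested in the main fit). Both Tprog libraries and 1 of 6 Tterm libraries carry the label batch 6, so the subset and the batch overlap, and Tprog replicate 1 stands apart. The Dusp14 peak read 27.9 and 23.3 in Tprog and 142 to 402 in Tterm (3.37 ± 0.38, adjusted p = 2.86e-06), and within batch 6, with 1 Tterm library, the difference was 2.44. Gene means of Dusp16 (52.0 against 122.4) and Dusp5 (97.2 against 210.4) were among 9 called higher and 0 lower (17.5% and 3.71% of all genes), with adjusted p of 0.000707 and 0.00105, and 0.363 and 0.49 with the compared groups alone. Of the 37 calls 1 was left with the compared groups alone and 0 within batch 6, whereas 93 were called without aged Tprog replicate 2.

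The comparison of aged with young OT-1 Tterm, 6 against 7 libraries, was the one age comparison of tumour cells in which member peaks were called. Spry2, which inhibits signalling from receptors to Ras, held 3 of the 4 peaks, all lower in aged cells, and Dusp11, an RNA phosphatase, held 1 that was higher. Over all peaks 0.178% were higher and 0.088% lower. The Spry2 promoter peak (chr14:105894891-105899100), which covers the sequence above, read 331 to 725 in aged libraries with a median of 414, and 605 to 1204 in young ones with a median of 969. The only aged library in the young range was replicate 6, at 725, and the log2 difference was -1.02 ± 0.17 (adjusted p = 0.00508). A peak 4111 bp beyond the gene (chr14:105886042-105887836) read 59.7 to 90.2 in aged and 115 to 327 in young libraries, without overlap (-1.46 ± 0.23, adjusted p = 0.00352). The third, at chr14:105954812-105957166, had an adjusted p of 0.0378 and lost the call under 13 alternatives.

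The Spry2 gene mean was 75.4 ± 16.8 in aged and 155.7 ± 33.1 in young OT-1 Tterm (log2 -1.03 ± 0.15, adjusted p = 0.00147), against 0.183% of all genes called higher and 0.257% lower. Within batches 4 and 5, with 5 libraries in each group, the difference was -1.21 (adjusted p = 0.00134). Within batch 6, with 1 aged and 2 young libraries, it was -0.35 (adjusted p = 0.944). The Spry2 gene mean was 114 and 112 in young OT-1 Tprog, 70.1 and 82.5 in aged OT-1 Tprog, 54.3 and 55.6 in young naive and 93.3 and 79.7 in aged naive cells. Both aged Tprog libraries are of batch 6 and both young ones of batches 4 and 5, so age and batch cannot be told apart in Tprog. Aged Tprog replicate 1 also stands apart. In endogenous Tterm the Spry2 gene mean was 378.7 ± 62.5 in young and 322.2 ± 55.9 in aged libraries (-0.23 ± 0.13, adjusted p = 0.611). Whether the age difference differs between OT-1 and endogenous cells was not tested.

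**Figure D4:**
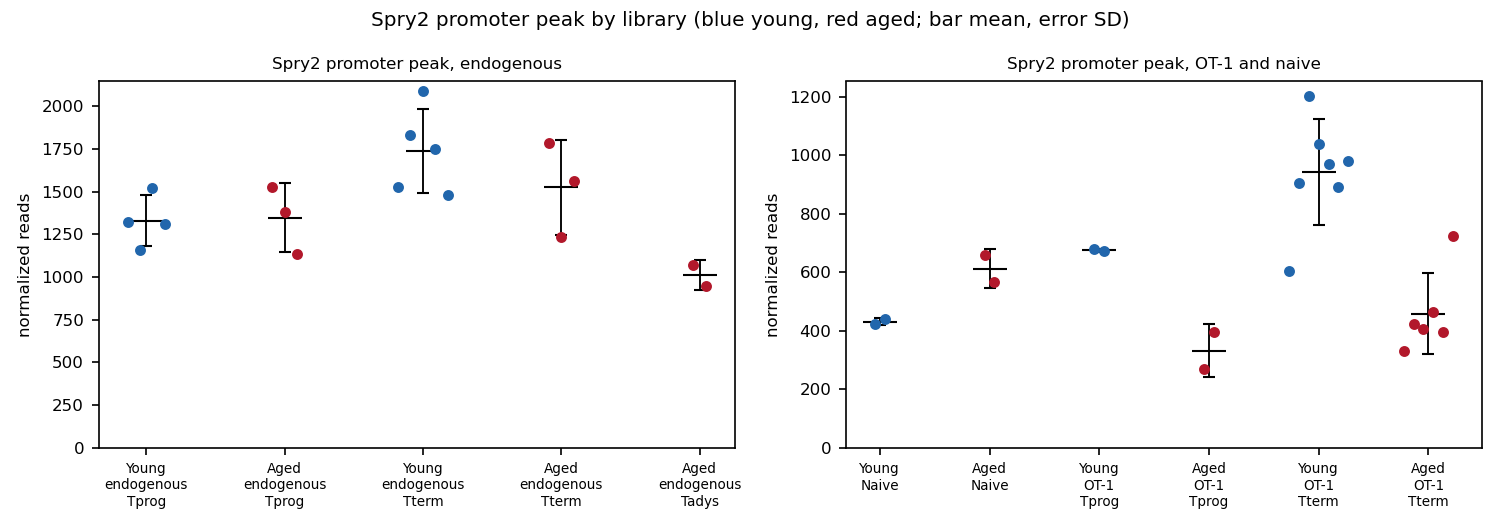
Normalised reads at the Spry2 promoter peak by library (points) with the group mean (bar) in the endogenous and the OT-1 and naive tables, on axes that start at 0. Aged OT-1 Tterm libraries read 331 to 725 and young ones 605 to 1204, while the aged and young endogenous Tterm libraries overlap.

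The Dusp11 peak (chr6:85938461-85939149), 3119 bp from the gene, read 60.8 to 128 in aged OT-1 Tterm (median 99.5) and 20.5 to 46.1 in young OT-1 Tterm (median 33.3). The ranges did not overlap and the log2 difference was 1.45 ± 0.23 (adjusted p = 0.00352), 1.67 within batches 4 and 5 and 0.62 within batch 6 (adjusted p = 1). The same peak read 82.6 and 46.5 in aged and 30.1 and 27.1 in young OT-1 Tprog, and 84.0 and 69.3 in aged and 42.4 and 41.7 in young naive cells (0.84, adjusted p = 0.283 in naive cells). In Tprog both aged libraries are of batch 6 and both young ones of batches 4 and 5, so age and batch cannot be told apart there, and the aged library at 82.6 is replicate 1, which stands apart.

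In naive cells, with 2 libraries per age, 3 member peaks were higher in aged mice and 3 lower (4.08% and 1.16% of all peaks), and with equal totals 4 and 7. In that scaling 4299 of all peaks were called in either direction (84091 were tested in the main fit). Fitted without the tumour libraries, the same comparison called 69 member peaks, 39 higher and 30 lower. The share of all peaks called in that fit is not given here, so the 69 cannot be set against it. The mean over all peaks was 75.3 and 79.6 in aged and 63.3 and 64.0 in young naive libraries, and its part in these differences was not tested. The lowest p was at Dusp26, an atypical phosphatase, where a peak 56937 bp from the gene (chr8:31031395-31032590) read 243 and 222 in aged and 50.8 and 65.8 in young cells (log2 1.99 ± 0.37, adjusted p = 0.00147). The same peak read 41.3 to 81.0 in aged and 27.3 to 75.5 in young OT-1 Tterm. The Dusp26 gene mean was 85.0 ± 3.7 and 34.7 ± 1.7 (1.27, adjusted p = 0.000624), but 0.55 (adjusted p = 0.374) over peaks within 10 kb.

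Gene means were called for 2 members, both higher (5.34% of all genes higher, 1.73% lower). The gene mean of Dusp3 was 76.9 ± 3.8 in aged and 26.1 ± 3.7 in young naive cells (log2 1.53, adjusted p = 0.000884). Its promoter peak (chr11:101983791-101985603), which lies inside the gene body, read 200 and 183 against 76.5 and 57.7 (1.51 ± 0.33, adjusted p = 0.00576). In OT-1 Tterm this peak read 170 to 245 in aged and 169 to 315 in young libraries. The peak inside Dusp22 described above read 22.7 and 36.0 in aged and 106 and 132 in young naive cells (-2.01, adjusted p = 0.0089, and not called without 3 of the 4 libraries in turn). Each left-out library reduced the 6 called peaks to between 1 and 3.

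Against naive cells the members differed widely. The naive libraries come from the spleen and all carry the batch label 3, which no tumour library has, so state, tissue and batch cannot be told apart. In young OT-1 Tterm 81 of 215 member peaks were higher than in naive cells and 30 lower, against 22.4% and 17.9% of all peaks, with a median log2 difference of 0.66 over members and -0.06 over all peaks. Young OT-1 Tprog had 58 higher and 14 lower (15% and 9.15%), and without any one of its 4 libraries 31 to 43 peaks were called. Aged OT-1 Tterm had 77 higher and 29 lower than aged naive cells (21.4% and 26.3%). The young comparisons share their naive libraries. Equal totals moved the median of all peaks by -0.20 in the first.

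By role, the inducible nuclear phosphatases had 24 of 48 peaks higher in young OT-1 Tterm than in naive cells and 4 lower, the atypical genes 21 and 5 of 50, the Sprouty genes 13 and 4 of 26, Spred 10 and 6 of 41, the JNK and p38 phosphatases 9 and 7 of 34 and the cytoplasmic ERK phosphatases 4 and 4 of 16. Gene means of 14 of 28 genes were higher and 3 lower (24.1% and 14.4% of all genes). Dusp3 rose from 26.1 to 100.2 (1.86, adjusted p = 1.37e-06), Spry2 from 54.9 to 155.7 (1.45), Dusp2 from 592.9 to 1436.7 (1.25) and Spry1 from 58.8 to 113.4 (0.98). In young Tprog 7 gene means were higher than in naive cells and 0 lower (11% and 7.88%), 3 to 4 without any one library, and in aged Tterm 7 were higher and 3 lower (16.9% and 30.5%). Spry4 went down in young Tterm, from 67.4 to 49.1 (-0.44, adjusted p = 0.00461). In aged cells Dusp26 fell from 85.0 in naive to 28.6 in Tterm (-1.61, adjusted p = 4.39e-07), and Dusp22 rose from 32.0 to 98.0 (1.58, adjusted p = 2.93e-07).

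A peak at the end of Dusp16 (chr6:134715416-134716967) separated naive from Tterm cells at both ages. It read 63.0 and 32.1 in young and 61.3 and 58.8 in aged naive cells, 418 and 469 in young and 45.4 and 304 in aged OT-1 Tprog, 654 to 1310 in young and 627 to 1378 in aged OT-1 Tterm. In young cells Tterm was 4.22 ± 0.42 above naive (adjusted p = 3.16e-08) and Tprog 3.27 (adjusted p = 4.91e-05). Aged OT-1 Tprog replicate 1, at 45.4, lay in the naive range.

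The peaks of Dusp22 moved in opposite directions by position. Upstream, the peak chr13:30609478-30610409, 49650 bp before the gene, read 48.8 and 41.7 in young naive, 187 and 200 in young OT-1 Tprog and 206 to 339 in young OT-1 Tterm. Inside the gene, the peak chr13:30681810-30682889 read 134 and 153 in young naive, 73.6 and 87.2 in Tprog and 28.9 to 50.5 in Tterm (Tterm against naive -2.01). Of the 21 Dusp22 peaks tested, 11 were higher in young OT-1 Tterm than in naive cells and 3 lower. In young endogenous cells the 3 peaks higher in Tterm lay before the gene (34216 to 49615 bp away) and the 3 lower ones inside it.

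**Figure D5:**
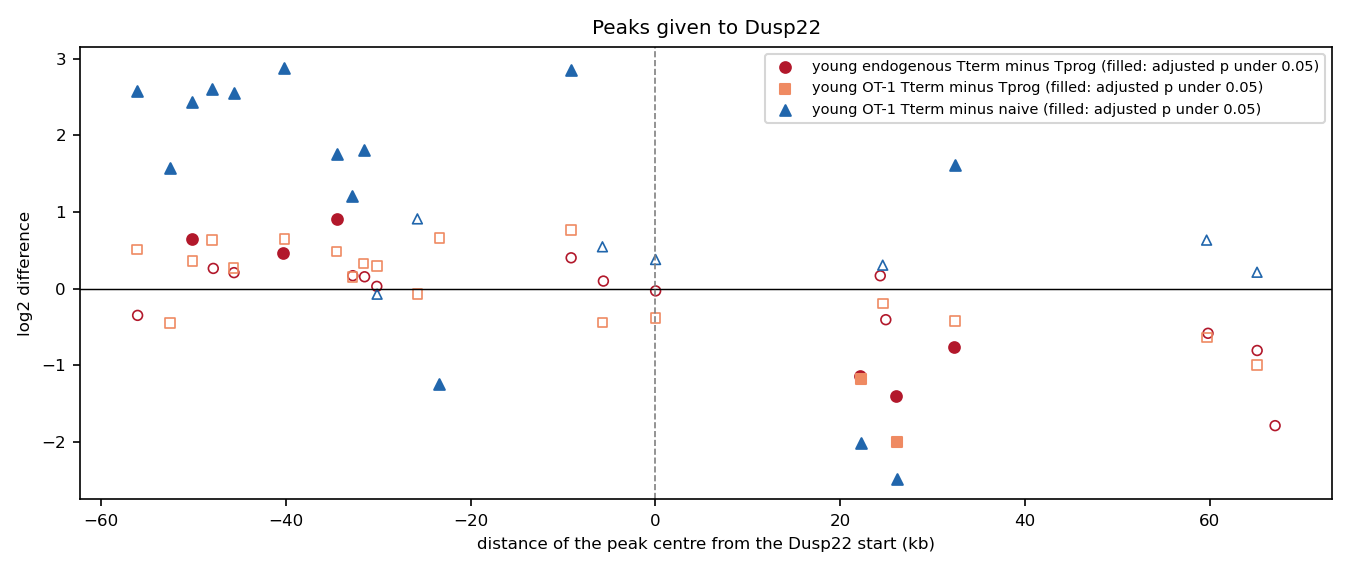
Log2 difference of each Dusp22 peak (points) against its distance in kb from the start of the gene, in 3 comparisons; filled points have an adjusted p under 0.05. The called endogenous peaks before the gene lie above 0, and those inside it below 0, down to -1.40.

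Other genes of the pathway were followed by 3 lists written from general knowledge. In young endogenous cells the ERK cascade (18 genes with 161 peaks) had 20 peaks higher in Tterm and 24 lower, the JNK and p38 kinases (10 genes, 72 peaks) 15 and 7, and the ERK-induced transcription factors (10 genes, 119 peaks) 18 and 27. The lowest p was at a peak inside Nf1, a brake on Ras (162.8 in Tprog and 19.3 in Tterm, log2 -3.07, adjusted p = 6.08e-08). Mapk14, which encodes p38 alpha, had a peak that rose from 101.6 to 378.9 (1.92, adjusted p = 1.66e-06). Near Etv6 a peak fell from 350.7 to 92.5 (-1.90, adjusted p = 6.17e-08). Over all peaks 14.3% were higher and 11.3% lower. In aged endogenous cells the counts over the same peaks were 8 and 13, 10 and 1, and 8 and 8 (6.75% and 5.37% of all peaks). No peak of the 3 lists was called between ages in endogenous cells or in OT-1 Tterm. In OT-1 and naive cells 187, 79 and 134 peaks of the lists were tested. In naive cells the counts were 4 higher and 1 lower, 1 and 0, and 4 and 0 (4.08% and 1.16% of all peaks), with the lowest p near Egr2 (27.3 in young and 128.6 in aged, 2.20, adjusted p = 0.000114). Young OT-1 Tterm against naive cells gave 49 and 30, 24 and 7, and 57 and 11 (22.4% and 17.9% of all peaks).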

How the data were processed

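ATAC-seq libraries of sorted CD8+ T cells were analysed from 2 tables of peaks by library. The values are normalised signal, deposited by the authors: reads in a peak divided by a size factor for each library. Per the submitters' processing notes, Bowtie2 2.2.9, Picard 2.8.0, SAMtools 1.3.1, MACS2 2.1.1, DESeq2 1.28.1 and the mm10 genome were used. Whole reads could be recovered for 100% of 1251370 and 3555783 values (tolerance 0.05 reads), which gives the depth and allows edgeR 4.0.16 (quasi-likelihood test) as an added check. Every value column was matched to a sample by its label. The lowest pair of libraries within a group still differed beyond sampling noise, so none was counted as a repeat.

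Peaks were given to the nearest autosomal protein-coding gene body (RefSeq, GRCm38.p6) within 100 kb. Peaks with a mean of 10 or more were tested with limma 3.58.1 (trend) on log2(normalised reads + 1), with all groups of a table in 1 fit and, in the OT-1 and naive table, a term for batch 6. The endogenous libraries share 1 entry for batches 1 and 2, so no batch term could be fitted there. All log2 differences are on this scale, which understates changes of low peaks. Adjusted p-values are Benjamini-Hochberg over the whole table, from limma unless edgeR is named. Gene means were tested likewise. The fit was tested on simulated data first. R 4.3.3 and Python 3.11.15 were used.

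The members and the lists were chosen with earlier results of these data known. Genes were named where their mean was called, and peaks by lowest adjusted p, up to 8 in each direction; some promoter peaks, Dusp22 peaks and the values of a peak in further groups were chosen after their values were seen. Alternatives were equal library totals, a pseudocount of 5, no filter, edgeR, peaks within 10 kb, the compared groups alone, the batch term left out or single batches, a replicate block, and each library left out.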

Additional observations from a re-analysis of the deposited data

Results flagged for a closer look

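Of 110 sets of 4 to 10 libraries of a group, each for 1 gene mean, 9 held a library far from the others by Dixon's criterion, where chance gives about 1 in 20. Young OT-1 Tterm replicate 6 was highest of 7 for 5 genes: Dusp1 at 392.0 (others 225.4 to 264.8), Dusp2 at 2094.7 (1213.0 to 1517.5), Dusp22 at 96.6 (79.0 to 85.9), Dusp8 at 99.0 (76.1 to 85.0) and Spred2 at 135.5 (87.0 to 105.1). This library carries the label batch 6 and has the highest mean over all peaks of its group, 98.7. Aged OT-1 Tterm replicate 5 was lowest of 6 for Dusp26 at 17.1 (28.2 to 32.5) and highest for Dusp27 at 14.5 (7.54 to 8.75). In young endogenous Tprog, replicate 3 was highest of 4 for Dusp26 at 124.6 (93.7 to 97.8) and replicate 4 for Spred3 at 427.3 (310.8 to 325.5).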

How the results depend on the processing

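Among 203 single peaks and genes under the alternatives, 2667 of 3019 values kept their direction and side of the threshold, 351 lost a call and 1 reversed: the Dusp22 gene mean in aged OT-1 Tterm against Tprog was -0.20 over peaks within 10 kb. Of 108 counts of called member peaks outside the left-out libraries, 91 stayed within 1.5 times. With the compared groups alone the counts were 2 (Tadys against Tterm), 2 (Tadys against Tprog), 7 (OT-1 Tterm, age), 1 (aged OT-1 subsets), 69 (naive, age) and 111 (young OT-1 Tprog against naive). Within batches 4 and 5 they were 8 (OT-1 Tterm, age) and 35 (young OT-1 subsets), and within batch 6, with few libraries, 0 (OT-1 Tterm, age) and 0 (aged OT-1 subsets). Equal totals gave 11 for naive age. Peaks within 10 kb, which are fewer, gave 23 (aged OT-1 subsets), 3 (naive, age), 70 (young Tterm against naive), 38 (young Tprog against naive) and 63 (aged Tterm against naive). For the alternatives other than equal totals and edgeR, the share of all peaks called is not given here. A change in those counts cannot be set against a change over all peaks. The cause of the other moves was not tested.

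Leaving out each library gave 52 to 62 peaks and 8 to 10 gene means for young endogenous subsets, 17 to 24 and 1 to 2 for aged ones, 0 to 0 for the endogenous age comparisons, 4 to 15 and 0 to 2 for Tadys against Tterm, 2 to 17 and 0 to 3 for Tadys against Tprog, 3 to 5 and 1 to 1 for OT-1 Tterm by age, 7 to 26 and 0 to 7 for young OT-1 subsets, 26 to 93 and 2 to 21 for aged OT-1 subsets, 1 to 3 and 2 to 2 for naive age, 72 to 115 and 9 to 22 for young Tterm against naive, 31 to 43 and 3 to 4 for young Tprog against naive, and 72 to 111 and 8 to 13 for aged Tterm against naive. The share of all peaks or genes called without each library is not given here. Where a group is left with 1 library, that library is assumed to vary like the others.

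The deviations of same-numbered replicates had correlations of -0.267 to 0.279, so no consistent pairing by number was seen. In groups of 2 libraries the deviations mirror each other, so this check cannot exclude pairing. A replicate block gave 12 called peaks for young OT-1 subsets in place of 21, 59 for young and 25 for aged endogenous subsets, and counts within 1.5 times in the other comparisons; it could not be estimated for aged OT-1 subsets. The number of libraries, 2 in the Tadys, OT-1 Tprog and naive groups, limits those comparisons.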
